A study of Mus musculus with 4 samples.

Results

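The prostaglandin and leukotriene pathway is described here by 10 genes: the cyclooxygenases Ptgs1 and Ptgs2, the terminal synthases Ptges and Tbxas1, 3 of the 4 prostaglandin E2 (PGE2) receptor genes, Ptger2, Ptger3 and Ptger4, and the leukotriene genes Alox5, Alox5ap and Lta4h. They were chosen by name, with earlier results of these data known. Each symbol was matched through its Ensembl ID to 1 of 52550 gene entries. All 10 reached the level needed for testing, as did 12730 entries in all. With LPS, Ptgs2 and Ptges rose and 7 of the other 8 genes fell, among them all 3 leukotriene genes, so that the cyclooxygenase message passed from mostly Ptgs1 to almost entirely Ptgs2.

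The macrophages were grown from the bone marrow of C57BL/6 mice aged 8 to 10 weeks. The 4 groups were wild-type cells left unstimulated, wild-type cells given lipopolysaccharide (LPS, the bacterial outer-membrane lipid sensed by Toll-like receptors) at 100 ng/mL for 12 hours, and miR-7 deficient cells left unstimulated or given the same LPS treatment. Each group held 1 library of polyadenylated RNA. The sources used here do not give how the deficiency was made, which miR-7 loci it removed, the sex of the mice or the number of mice behind a library.

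Prostaglandins and leukotrienes are short-lived lipid messengers made from arachidonic acid, which phospholipases release from membranes. Cyclooxygenases turn it into prostaglandin H2, from which PTGES makes PGE2, the mediator of fever and pain, and TBXAS1 makes thromboxane. 5-lipoxygenase, encoded by Alox5, acts together with its membrane partner ALOX5AP to make leukotriene A4, which LTA4H converts to the neutrophil attractant leukotriene B4. Macrophages make both families, and PGE2 acts back on them through the receptors encoded by the Ptger genes.

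The series text states that the counts served to find protein-coding genes lowered by miR-7, so the mature miR-7 sequences are shown first. Both are given 5′ to 3′ from RefSeq, GRCm38.p6, with the seed, bases 2 to 8, in capitals. miR-7a-5p has identical copies at chr7:78888295-78888317 on the plus strand and chr13:58392841-58392863 on the minus strand, and miR-7b-5p lies at chr17:56243017-56243040 on the plus strand. The seed is the same in both:
mmu-miR-7a-5p: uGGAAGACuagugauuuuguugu
mmu-miR-7b-5p: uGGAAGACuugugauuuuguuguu
Letters that pair with this seed over 7 bases stood in the longest annotated 3′ untranslated region (UTR) of 2 of the 10 genes, Ptgs2 and Ptges, both of which rose with LPS. Among the 11296 tested genes with an annotated 3′ UTR, 14.3% held such a match, and 4.23% held one followed by an A, as both of these are. The Ptgs2 match covers bases 1114 to 1120 of a UTR of 2445 bases, and the Ptges match covers bases 1100 to 1106 of a UTR of 3106 bases, both counted from the base after the stop codon. The match is in capitals within its surroundings:
Ptgs2 3′ UTR: caatattgatatGTCTTCCagcccatt
Ptges 3′ UTR: tgtccaaatcctGTCTTCCacgtggcg
The median longest UTR was 1077 bases for the 10 genes and 1187 bases for all tested genes with a UTR. The UTRs of Ptges and Ptgs2 were the longest of the 10, and the shares over all genes were not matched for length. The seed matches are matches of letters. No value here measures binding of miR-7. In deficient over wild-type libraries, Ptgs2 was at log2 -3.26 unstimulated and -0.47 with LPS, and Ptges at 0.05 and 0.34. The unstimulated values depend on a share of counts described below, without which that of Ptges is 0.47.

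The windows around the starts of the 2 genes that rose and of Alox5, which fell steeply, are shown because these genes moved in opposite directions. Each runs from 250 bases before to 50 after the start in RefSeq GRCm38.p6, and letters matching the NF-kB motif (GGG, any 5 bases, CC) or the C/EBP motif (TTNNGNAA) on either strand are in capitals. The Ptgs2 window is chr1:150099781-150100080 on the plus strand, the Ptges window chr2:30903248-30903547 on the minus strand, at a start inside the longer gene of the GENCODE annotation, and the Alox5 window chr6:116461129-116461428 on the minus strand:
Ptgs2: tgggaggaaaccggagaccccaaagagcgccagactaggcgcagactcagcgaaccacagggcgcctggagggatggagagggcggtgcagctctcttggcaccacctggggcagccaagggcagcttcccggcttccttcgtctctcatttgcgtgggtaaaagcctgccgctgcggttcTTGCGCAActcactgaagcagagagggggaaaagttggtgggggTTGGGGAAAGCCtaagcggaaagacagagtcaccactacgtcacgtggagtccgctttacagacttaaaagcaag
Ptges: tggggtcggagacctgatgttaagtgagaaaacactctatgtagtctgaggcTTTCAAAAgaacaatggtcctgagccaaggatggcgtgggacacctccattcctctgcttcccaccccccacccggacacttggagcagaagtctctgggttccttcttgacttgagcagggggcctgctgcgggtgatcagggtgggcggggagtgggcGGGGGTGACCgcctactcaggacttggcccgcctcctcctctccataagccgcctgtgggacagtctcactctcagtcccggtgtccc
Alox5: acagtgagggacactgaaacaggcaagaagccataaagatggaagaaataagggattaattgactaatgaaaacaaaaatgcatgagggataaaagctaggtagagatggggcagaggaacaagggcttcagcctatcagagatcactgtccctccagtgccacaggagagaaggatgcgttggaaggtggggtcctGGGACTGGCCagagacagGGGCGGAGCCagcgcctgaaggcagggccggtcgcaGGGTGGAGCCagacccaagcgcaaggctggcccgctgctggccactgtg
In the Ptgs2 window the NF-kB letters start 23 bases before the gene's start and overlap the second of 2 C/EBP matches. Ptges held 1 match of each kind, and Alox5 held 3 NF-kB matches and no C/EBP match. NF-kB letters occurred in 7 of the 9 members with a window and in 50.8% of 32851 promoters, and C/EBP letters in 3 of the 9 and in 40.7%. The other motifs searched, on both strands, were the cyclic AMP response element TGACGTCA (0 of 9 members, 1.79% of promoters), AP-1 TGANTCA (1, Tbxas1, 7.81%), the E-box CANNTG (6, 72.3%), the interferon-stimulated response element core (0, 3.44%) and the TATA box TATAAA (1, Tbxas1, 13.6%). So the window of a gene that fell held more NF-kB letters than that of either gene that rose, and a match is a description of letters, not of a bound site.

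Levels are given as CPM, counts scaled to library size and between libraries with TMM factors, and 4 values in a row follow the order wild-type unstimulated, wild-type LPS, deficient unstimulated, deficient LPS. Total counts were 33937823 to 42074624 a library, with 18156 to 18613 entries detected. The LPS change and its standard error come from an edgeR quasi-likelihood fit of genotype and LPS to the 4 libraries, in which the 2 genotypes stand in for replicates and 1 residual degree of freedom is left. Adjusted p-values are Benjamini-Hochberg values over all 12730 tested genes, and a gene is said to rise or fall where its value is under 0.05. Ratios of 1 library to another have no replicate check, since each group held 1 library, and their 95% intervals (exact, Clopper-Pearson) cover counting error only. Reads from PCR copies are not independent molecules, so these intervals can be too narrow even for counting error. Among entries of the targeted microRNA, Mir7-1 had 15, 10, 7 and 7 counts, and Mir7-2 and Mir7b had 0 in every library. Polyadenylated RNA does not hold mature miR-7, so these counts do not check the deficiency. The 9 macrophage markers summed to 13480 to 23140 CPM, while neutrophil markers summed to 8.06 to 11.1 CPM, mostly S100a8. Of the neutrophil markers, Ly6g, Elane and Retnlg were at 0 in every library, and Cxcr2 was at 0 in both LPS libraries. Mast cell and basophil markers summed to 3.36 to 11.3 CPM, with 6 of 8 at 0.

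LPS changed 9 of the 10 genes: 2 rose and 7 fell, beside 18.0% of tested genes that rose and 16.3% that fell. The median fitted change of the 10 genes was log2 -1.39, against -0.04 for all tested genes. Because the 10 genes were chosen with earlier results of these data known, these counts and medians only describe them. The 7 decreases rest partly on the unstimulated libraries, since 2 of them remained called without the wild-type unstimulated library and 4 without the deficient unstimulated one. Ptger3 was too low for testing in both of these fits. Scaling by total counts in place of TMM moved the median over the tested genes (-0.44 in wild-type and -0.38 in deficient cells) and left the calls of the 10 genes as they were, while the split over all genes went from 2297 higher and 2075 lower to 1550 and 3840. In these bulk libraries, fewer cells of a type and less RNA per cell cannot be told apart.

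**Figure D1:**
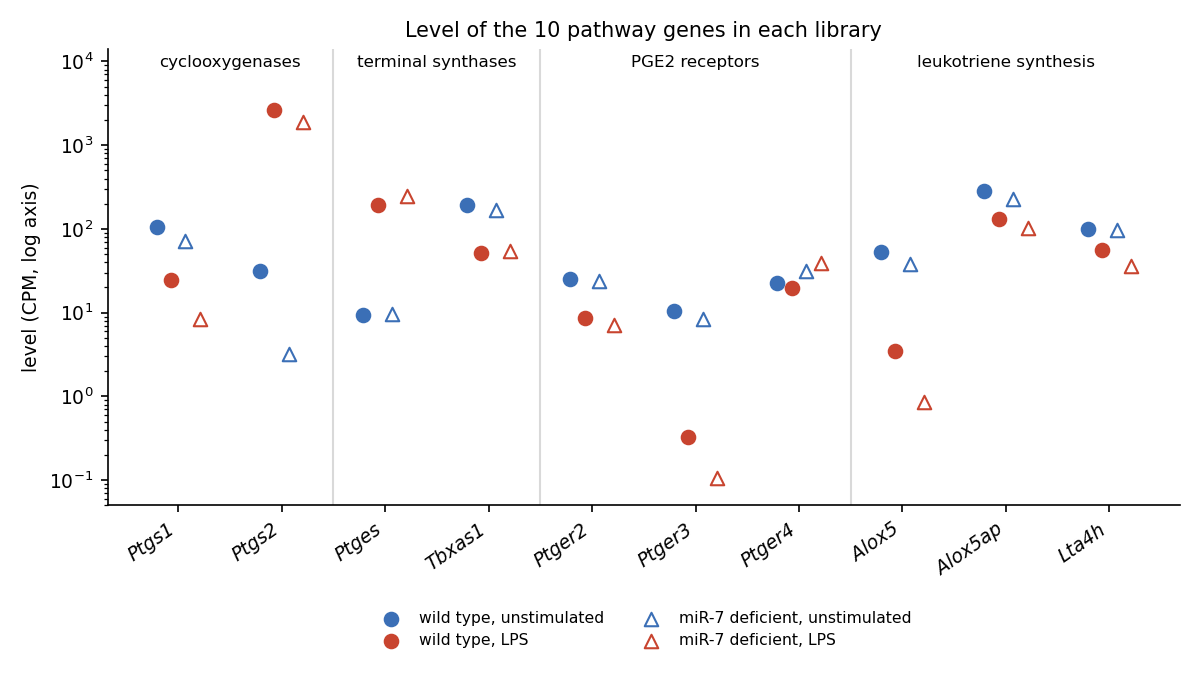
Level of each of the 10 genes in the 4 libraries, in CPM on a log axis, grouped by role. Each point is 1 library: filled circles are wild type, open triangles miR-7 deficient, blue unstimulated and red LPS. Ptgs2 and Ptges are the only genes whose LPS points both lie above their unstimulated points by a wide gap, and Ptger3 with LPS is the lowest at 0.332 and 0.107 CPM.

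The 2 cyclooxygenases moved in opposite directions. Ptgs1 (ENSMUSG00000047250.13, chromosome 2, 36230426 to 36252272, plus strand, GRCm38) encodes the constitutive enzyme COX-1 and stood at 106, 24.7, 72.7 and 8.52 CPM. Both LPS libraries were below both unstimulated ones, and the deficient library was the lower of each pair. Ptgs1 fell by 2.59 ± 0.30 on the log2 scale with LPS, adjusted p 0.00144 by edgeR with Benjamini-Hochberg adjustment. The decrease was 4.29-fold in wild-type cells and 8.54-fold in deficient cells. Its call was lost without the wild-type unstimulated library (adjusted p 0.121) and without the deficient unstimulated library (0.0648).

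Ptgs2 (ENSMUSG00000032487.8, chromosome 1, 150100031 to 150108227, plus strand) encodes the inducible enzyme COX-2, the main target of anti-inflammatory drugs selective for this isoform. It stood at 31.1, 2619, 3.24 and 1896 CPM, from 1455, 86827, 127 and 71016 counts. The LPS libraries were far above the unstimulated ones, and the unstimulated libraries differed from each other much more than the LPS libraries did. Ptgs2 rose with LPS by log2 7.74 ± 0.80, adjusted p 0.00101 by edgeR with Benjamini-Hochberg adjustment. The ratio was 84.2-fold in wild-type cells (log2 6.40, 6.32 to 6.47) and 586-fold in deficient cells (log2 9.19, 8.94 to 9.46), a gap that lies in the unstimulated values.

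A share of the wild-type LPS counts reappeared in the wild-type unstimulated library, and it bears on Ptgs2. Over 27 genes that were at least 200-fold higher with LPS in deficient cells, at 100 CPM or more, the wild-type unstimulated count was a median 1.81% of the wild-type LPS count, with quartiles of 1.61% and 2.02%. Ptgs2 is one of these genes, at 1.68%, and so is part of this median. Its deficient unstimulated count was 0.179% of its deficient LPS count. A low share in the deficient pair follows for all 27 genes from the rule that chose them. Taking 1.81% of the wild-type LPS counts out of the wild-type unstimulated library leaves 0 counts of Ptgs2 there. The same step leaves 319 of 436 counts of Ptges, which was not among the 27 genes. What put these counts in the library was not tested, so the level of Ptgs2 in unstimulated wild-type cells, and every Ptgs2 value set against it, has this limit.

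Per length, Ptgs2 went from the minor to the major cyclooxygenase message. With levels divided by merged exon length, Ptgs2 was 19.9% of the summed Ptgs1 and Ptgs2 level in wild-type unstimulated cells (18.98 to 20.86%) and 98.9% with LPS. In deficient cells it was 3.64% unstimulated (3.04 to 4.32%) and 99.5% with LPS. The wild-type unstimulated percentage is limited by the reappearing wild-type LPS counts, since taking them out leaves 0 counts of Ptgs2 in that library. With the longest annotated transcript as the length, the shares were 15.9%, 98.6%, 2.79% and 99.3%, so Ptgs1 was the larger in both unstimulated libraries and Ptgs2 in both LPS libraries under either length. Both genes moved in this reversal: in deficient cells Ptgs1 went from 18.7 to 2.19 CPM per kilobase while Ptgs2 went from 0.707 to 414.

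**Figure D2:**
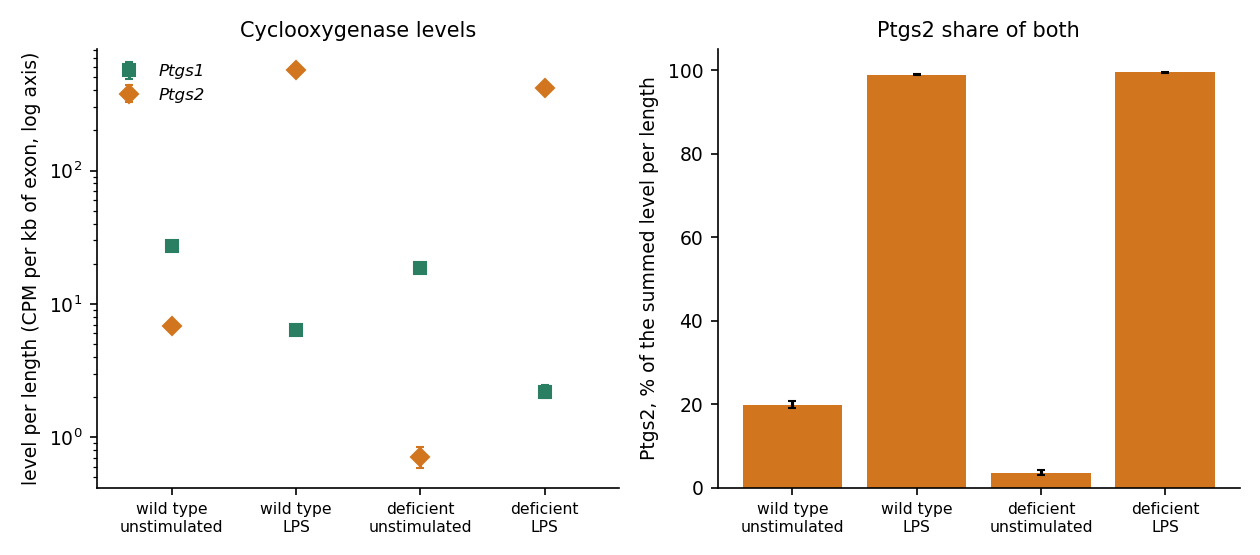
Left, levels of Ptgs1 (squares) and Ptgs2 (diamonds) per kilobase of exon in the 4 libraries, on a log axis, with exact 95% counting intervals. Right, Ptgs2 as a percentage of the summed level of both genes, with exact 95% binomial intervals: it is 19.9% and 3.64% in the unstimulated libraries and 98.9% and 99.5% with LPS. The wild-type unstimulated value of Ptgs2 is limited by the reappearing wild-type LPS counts.

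Of the 2 terminal synthases, the PGE2 synthase rose and the thromboxane synthase fell. Ptges (ENSMUSG00000050737.13, chromosome 2, 30889471 to 30929863, minus strand) encodes the microsomal, inducible PGE2 synthase that works beside COX-2. It stood at 9.32, 195, 9.64 and 247 CPM. The genotypes were close at rest, and the deficient library was the higher of the LPS pair. Ptges rose by log2 4.54 ± 0.22, adjusted p 0.000173 by edgeR with Benjamini-Hochberg adjustment, 20.96-fold in wild-type and 25.7-fold in deficient cells.

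Tbxas1 (ENSMUSG00000029925.13, chromosome 6, 38875404 to 39084585, plus strand) encodes thromboxane A synthase, whose product constricts vessels and activates platelets. It stood at 191, 51.1, 171 and 54.2 CPM, so both LPS libraries lay far below both unstimulated ones and the genotypes were close. Tbxas1 fell by 1.78 ± 0.19 on the log2 scale, adjusted p 0.00114 by edgeR with Benjamini-Hochberg adjustment. Its exons share 144 bases with Gm42962 on the opposite strand, and the sources used here do not say whether the counting used strand. Markers of platelets and megakaryocytes, cells that also hold this enzyme, summed to 19.2 to 22.7 CPM, mostly Pf4 (17.1, 17.6, 10.7 and 17.4 CPM). Of the 4 tested, Treml1 fell with LPS (2.01, 0.181, 2.47 and 0.774 CPM, edgeR adjusted p 0.0305). The other 3, Pf4, Ppbp (0.641, 1.54, 3.93 and 2.16 CPM) and Itga2b (0.299, 2.93, 1.35 and 1.39 CPM), were not called. Their fitted LPS changes were log2 0.37, 0.14 and 1.58. The part of these markers in the result was not tested.

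Of the 3 PGE2 receptor genes among the members, 2 fell and 1 was not called. The other PGE2 receptor gene, Ptger1, is counted in the wider list described below. Ptger3 (ENSMUSG00000040016.16, chromosome 3, 157566892 to 157645888, plus strand) encodes EP3, which lowers cyclic AMP, and stood at 10.4, 0.332, 8.34 and 0.107 CPM. With LPS it was close to undetected, at 11 and 4 counts against 485 and 327 without. Ptger3 fell by 5.49 ± 0.51 on the log2 scale, adjusted p 0.000688 by edgeR with Benjamini-Hochberg adjustment. The decrease was 31.3-fold in wild-type cells (log2 -4.97, -5.98 to -4.11) and 78.0-fold in deficient cells (log2 -6.29, -8.17 to -4.92), intervals that overlap.

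Ptger2 (ENSMUSG00000037759.5, chromosome 14, 44988195 to 45003820, plus strand) encodes EP2, which raises cyclic AMP. It stood at 25.1, 8.63, 23.6 and 7.13 CPM, so both LPS libraries were well below both unstimulated ones, and the genotypes were close. Ptger2 fell by 1.63 ± 0.22 on the log2 scale, adjusted p 0.00281 by edgeR with Benjamini-Hochberg adjustment. Its exons share 246 bases with Gm17173 and 144 with Gm49364, both on the opposite strand.

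Ptger4 (ENSMUSG00000039942.15, chromosome 15, 5206661 to 5244187, minus strand) encodes EP4, the other receptor that raises cyclic AMP. It was the 1 member not called for LPS, at 22.8, 19.8, 31.9 and 38.7 CPM. The deficient libraries were the higher of both pairs, and LPS went with a slightly lower value in wild-type and a higher one in deficient cells. The fitted LPS change was log2 0.04 ± 0.22, adjusted p 0.903 by edgeR with Benjamini-Hochberg adjustment, and its sign turned to -0.37 when libraries were scaled by total counts. Among these 3 genes, Ptger4 was the highest per length with LPS in both genotypes: per kilobase, Ptger2, Ptger4 and Ptger3 stood at 4.83, 3.43 and 1.82 CPM in wild-type unstimulated cells and at 1.66, 2.99 and 0.0583 with LPS. In deficient cells the same levels were 4.55, 4.79 and 1.47 unstimulated and 1.37, 5.82 and 0.0188 with LPS.

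All 3 leukotriene genes fell, the enzyme at the head of the branch most. Alox5 (ENSMUSG00000025701.12, chromosome 6, 116410077 to 116461178, minus strand) encodes 5-lipoxygenase and stood at 53.4, 3.53, 37.9 and 0.854 CPM, from 2497, 117, 1487 and 32 counts. Both LPS libraries were a small fraction of the unstimulated ones, and the deficient library was the lower of each pair. Alox5 fell by 4.62 ± 0.42 on the log2 scale, adjusted p 0.000654 by edgeR with Benjamini-Hochberg adjustment. The decrease was 15.1-fold in wild-type and 44.4-fold in deficient cells. Without the wild-type unstimulated library its adjusted p was 0.051.

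Alox5ap (ENSMUSG00000060063.9, chromosome 5, 149264767 to 149288153, plus strand) encodes the membrane protein that presents arachidonic acid to 5-lipoxygenase. It stood at 288, 131, 231 and 103 CPM, with a nearly equal LPS ratio in both genotypes, 2.20-fold and 2.24-fold lower. Alox5ap fell by 1.15 ± 0.18 on the log2 scale, adjusted p 0.00481 by edgeR with Benjamini-Hochberg adjustment. The call was lost without the wild-type unstimulated library (adjusted p 0.0784) and without the deficient LPS library (0.0525). Its exons share 189 bases (13.3%) with Gm19719 on the opposite strand, which had 1033, 343, 738 and 345 counts of its own.

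Lta4h (ENSMUSG00000015889.8, chromosome 10, 93453411 to 93484875, plus strand) encodes the hydrolase that makes leukotriene B4 and also trims peptides. It stood at 99.8, 55.7, 97.4 and 36.5 CPM. The unstimulated libraries were alike, and the deficient library was the lower with LPS. Lta4h fell by 1.13 ± 0.22 on the log2 scale, adjusted p 0.0101 by edgeR with Benjamini-Hochberg adjustment, and its call was lost without the wild-type unstimulated library (adjusted p 0.121) and without the deficient unstimulated library (0.0931). Its adjusted p was the highest of the 9 calls.

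**Figure D3:**
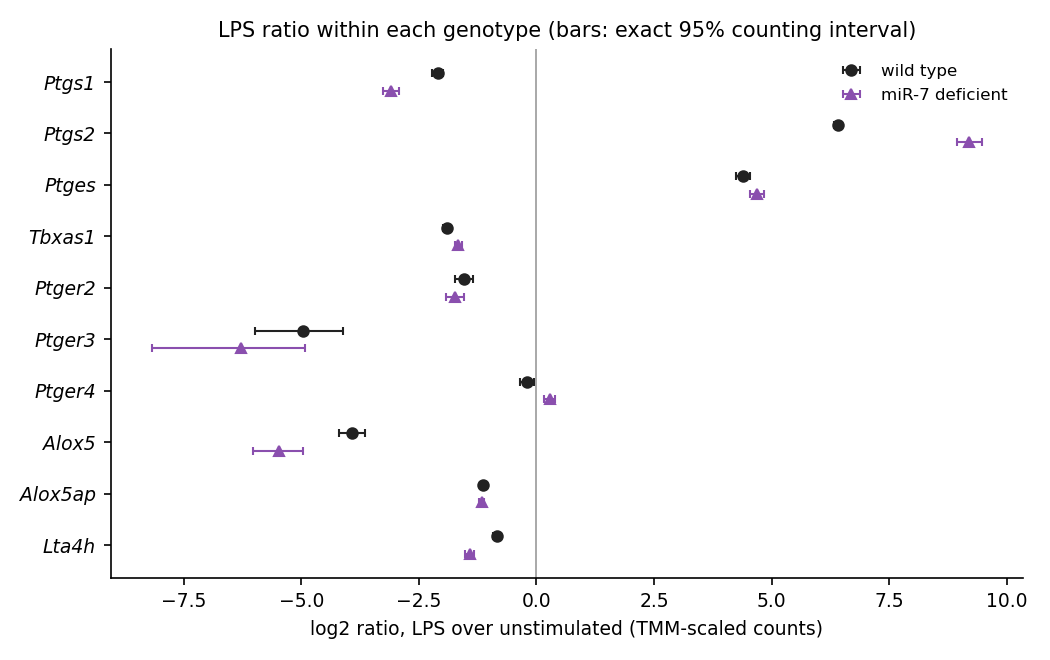
Log2 ratio of LPS over unstimulated for each of the 10 genes, in wild-type (black circles) and miR-7 deficient cells (purple triangles), with exact 95% counting intervals and no replicates. Only Ptgs2 and Ptges lie to the right of 0 in both genotypes, Ptger4 lies on either side of 0, and the gap between genotypes is widest for Ptgs2 (6.40 and 9.19). The wild-type Ptgs2 ratio is limited by the reappearing share of wild-type LPS counts.

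Counted by pairs of libraries, with the whole interval beyond 2-fold, 2 members were higher and 6 lower with LPS in wild-type cells (14.8% and 13.3% of tested genes), and 2 were higher and 7 lower in deficient cells (12.5% and 11.8%). The gene that made the difference was Lta4h, at -0.84 (-0.92 to -0.76) and -1.42 (-1.51 to -1.33) on the log2 scale.

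Ordered by level per kilobase, Alox5ap was the highest of the 10 genes in both unstimulated libraries, at 203 CPM per kilobase in wild-type and 163 in deficient cells, followed by Ptgs1 and Tbxas1. In deficient unstimulated cells, Tbxas1 (18.8) and Ptgs1 (18.7) had overlapping counting intervals, as had Ptger4 (4.79) and Ptger2 (4.55). With LPS, Ptgs2 was the highest in both genotypes, at 572 and 414 CPM per kilobase, followed by Alox5ap (92.2 and 72.5) and Ptges (49.7 and 62.9), while Alox5 (0.859 and 0.208) and Ptger3 were the lowest. Lta4h, Tbxas1 and Ptger4, at 5.97, 5.96 and 5.82, could not be ordered in deficient LPS cells. Using the longest transcript as the length swapped a few neighbours, Ptgs1 with Tbxas1 in both wild-type libraries, for example, but no gene at either end of the LPS order.

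Profiles most like those of 4 members were found by Euclidean distance between centred log2(CPM + 1) profiles over the 4 libraries, among protein-coding genes. Of 7945 candidates, the nearest to Ptgs2 were the chemokine Ccl5 (distance 0.472; 64.9, 5296, 4.95 and 3913 CPM) and the cytokines Il1b (0.501) and Il12b (0.701), followed by Il6 (0.798) and Slfn4 (0.994). For Ptges they were Ddx60 (0.08; 13.7, 298, 14.6 and 351 CPM), Gbp2b, Ntng2, Ifih1 and Adgb, a list with 2 RNA-sensing helicases and a guanylate-binding protein and none of the genes nearest to Ptgs2. The nearest to Ptger3, of 11155 candidates, were Daglb (0.227), Hal, Cdc25b, Kazald1 and Tmem144. For Alox5ap they were Acot11 (0.039), Sh3bgrl2, C2cd2, Metrnl and S100a6. Across 4 libraries such distances only describe the profiles. The wild-type unstimulated values of Ptgs2 and Ptges used here have the limit of the reappearing share of wild-type LPS counts, and so have the lists of genes nearest to them.

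The steps before and after these genes were followed in a list of 73 other eicosanoid genes, also chosen with earlier results of these data known. Of these genes, 49 were tested, 24 were too low and 10 of those 24 had 0 counts in every library. With LPS 11 rose and 19 fell, 19 were not called, and the median fitted change was log2 -0.25, beside 18.0% higher, 16.3% lower and a median of -0.04 over all tested genes, against which the counts of each group below are also to be read. Of the 16 genes of this list named for LPS, 6 lost their call in 1 or more fits without a library: Mgll (adjusted p up to 0.0837), Fam213b (0.0833), Ltc4s (0.104), Pla2g4a (0.057), Mboat1 (0.104) and Acsl3 (0.0982). Among 9 tested phospholipases and related lipases, 3 rose and 3 fell. Pla2g4a, the cytosolic phospholipase A2 that frees arachidonic acid for both branches, stood at 34.9, 161, 28.8 and 96.2 CPM and rose by log2 1.97 ± 0.21 (edgeR adjusted p 0.00114). Pla2g4f had 0 counts in both unstimulated libraries and 2.68 and 6.03 CPM with LPS, at least 41.9-fold and 78.9-fold higher against a floor of 3 counts per library. Daglb, a diacylglycerol lipase, fell by 3.21 ± 0.20 on the log2 scale, but 24.1% of its exonic bases are shared with Rac1. Mgll, which breaks down the endocannabinoid 2-arachidonoylglycerol into arachidonic acid, stood at 336, 103, 418 and 37.2 CPM and fell by 2.60 ± 0.44 on the log2 scale, and Pla2g15, the lysosomal phospholipase, fell by 1.70 ± 0.18 on the log2 scale.

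Of 8 tested prostanoid enzymes, 1 rose and 3 fell. Hpgds, the prostaglandin D2 synthase of blood cells, stood at 76.0, 6.33, 61.7 and 9.53 CPM, so both LPS libraries were well below both unstimulated ones. Hpgds fell by 3.13 ± 0.29 on the log2 scale (edgeR adjusted p 0.000712). Fam213b, a prostamide and prostaglandin F synthase, fell by 2.48 ± 0.44. Thus Ptges rose while the synthases of thromboxane and prostaglandin D2 fell, and the constitutive Ptges3 rose by log2 1.03 ± 0.22. Of 6 prostanoid receptors outside the 10 genes, 3 had 0 counts in every library and 1 of the 3 tested fell, Ptgir, the prostacyclin receptor (log2 -0.75 ± 0.22).

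In the group of leukotriene and lipoxygenase genes, which is not limited to later steps of leukotriene synthesis, 5 of 7 tested genes fell and 1 rose. The 5 were Ltc4s, Mgst2, Mgst3, Dpep2 (log2 -0.75 ± 0.19) and Cotl1 (log2 -1.22 ± 0.20). Ltc4s, which makes leukotriene C4, stood at 8.76, 1.66, 4.94 and 1.04 CPM and fell by 2.32 ± 0.37 on the log2 scale (edgeR adjusted p 0.00524), though 26.4% of its exonic bases are shared with Gm26542. Mgst2 and Mgst3, membrane enzymes that conjugate glutathione, fell by 2.69 ± 0.26 and 2.43 ± 0.33. The gene that rose was Alox12, the 12-lipoxygenase of platelets, at 0.107, 4.89, 0.306 and 5.77 CPM (log2 4.77 ± 0.56). Of 3 tested leukotriene receptors, Ltb4r1, the leukotriene B4 receptor, fell by 1.52 ± 0.33, so synthesis genes and this receptor were both lower.

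Among 11 genes that handle arachidonate, 3 rose and 4 fell. Acsl1, a ligase that activates long fatty acids, stood at 64.0, 2614, 89.2 and 3149 CPM and rose by log2 5.25 ± 0.24 (edgeR adjusted p 0.000173). Taking out the reappearing share of wild-type LPS counts leaves 1425 of its 2992 wild-type unstimulated counts and a fitted change of log2 5.78. Pla2g16, an acyltransferase and phospholipase, rose by log2 4.06 ± 0.24. Mboat1 and Lpcat1, enzymes that esterify fatty acids, fell by 1.97 ± 0.44 and 1.79 ± 0.20 on the log2 scale. Acsl3, a ligase of the same kind as Acsl1, fell by 1.83 ± 0.25. Of 8 tested genes of transport and inactivation, 3 rose and 2 fell.

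**Figure D4:**
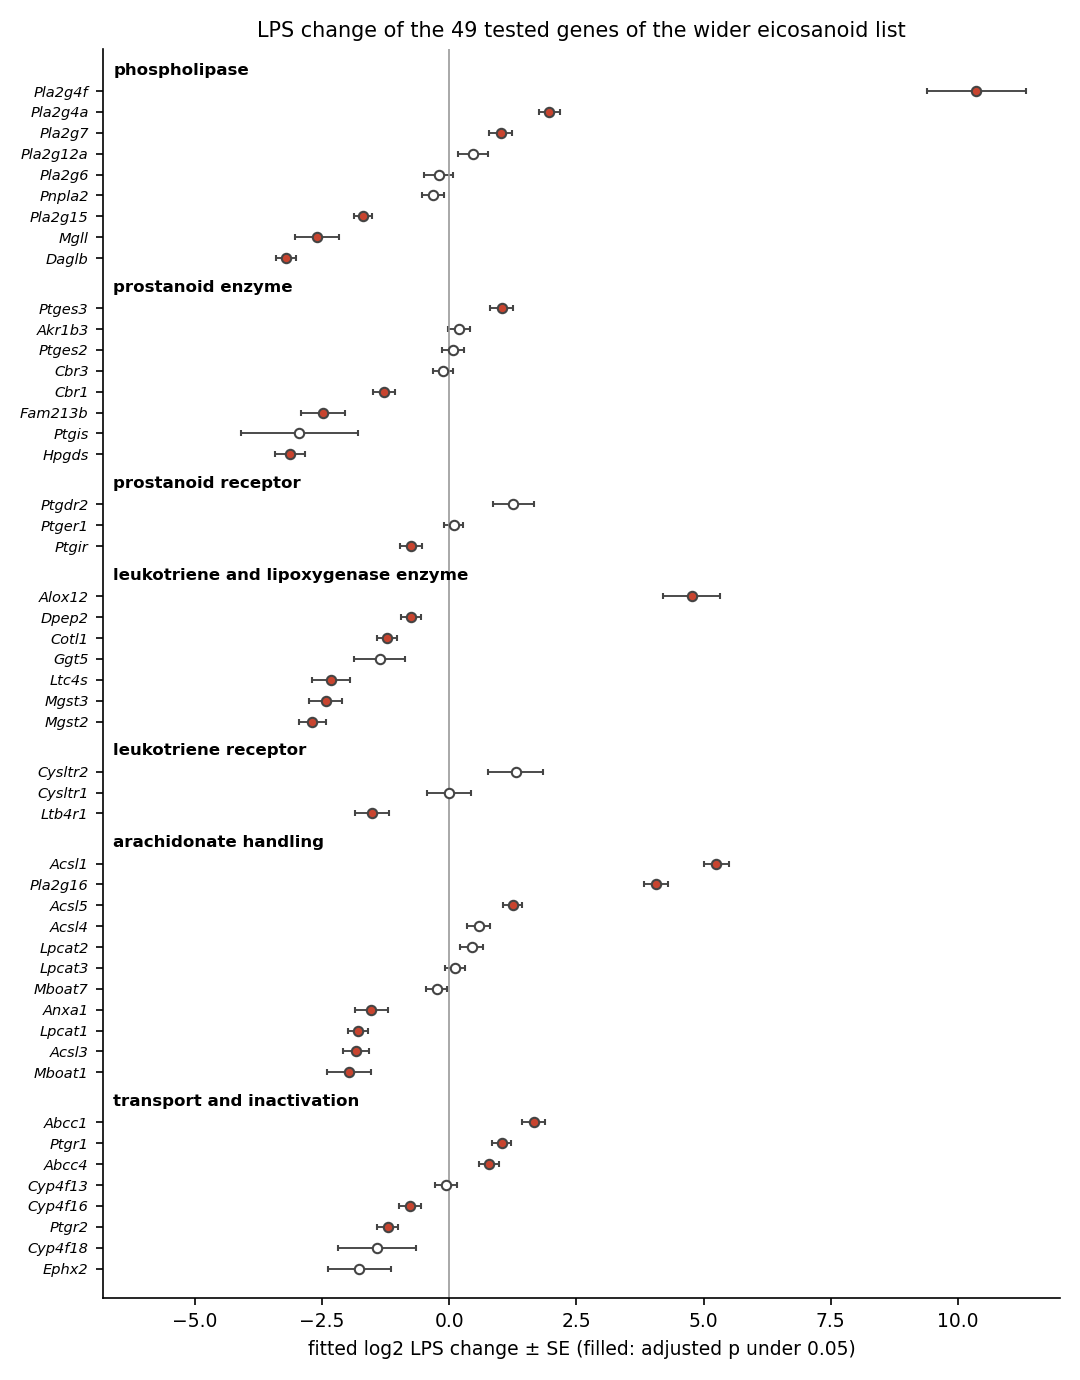
Fitted log2 LPS change with its standard error for the 49 tested genes of the wider eicosanoid list, grouped by role, with filled points for an edgeR adjusted p under 0.05. In the leukotriene and lipoxygenase group 5 of 7 points are filled and left of 0, and in the phospholipase group 3 filled points lie on each side. The point of Pla2g4f, at 0 counts without LPS, depends on a small count added by the fit.

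No member passed the test for genotype, the comparison of deficient with wild-type libraries, for which 0.55% of tested genes were called (70 genes, and 968 at an unadjusted p under 0.05). In that fit the 2 conditions stand in for replicates, so its p measures how alike the 2 genotype pairs are and not the spread among mice. The median genotype change of the 10 genes was log2 -0.33, against 0.02 for all tested genes. Of the 10 genes 8 were lower, beside 6074 of the 12730 tested genes. Among the 8, Ptgs2 turned to log2 1.88 with the reappearing share taken out, and Tbxas1, at -0.04, was at 0.00 by total counts. DESeq2's Wald test called 0 of them as well. At an unadjusted p under 0.05 by edgeR stood 4 members. Ptgs1 was at log2 -1.03 ± 0.28 (p 0.0103, adjusted p 0.358), Ptger4 at 0.72 ± 0.23 (p 0.0177, adjusted p 0.445), Alox5 at -1.14 ± 0.38 (p 0.0237, adjusted p 0.502) and Ptgs2 at -1.80 ± 0.65 (p 0.0319, adjusted p 0.558).

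By pairs of libraries, 0 members were beyond 2-fold higher in deficient unstimulated cells (2.82% of tested genes) and 1 was lower, Ptgs2 (1.41%). With LPS 0 were higher (2.58%) and 2 were lower, Ptgs1 and Alox5 (3.04%). Ptgs2 was 9.61-fold lower in deficient cells at rest (log2 -3.26, -3.54 to -3.0) and 1.38-fold lower with LPS. The value at rest is the one limited by the reappearing share of wild-type LPS counts, and with that share taken out its fitted genotype change turns to log2 1.88. Ptgs1 was 1.46-fold lower at rest and 2.90-fold lower with LPS, and Alox5 was 1.41-fold and 4.13-fold lower. Ptger4 was higher in both conditions with intervals clear of 0, at 1.40-fold and 1.95-fold. Ptges was at log2 0.05 (-0.15 to 0.25) unstimulated and 0.34 (0.30 to 0.39) with LPS, and the first value becomes 0.47 with the reappearing share taken out.

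**Figure D5:**
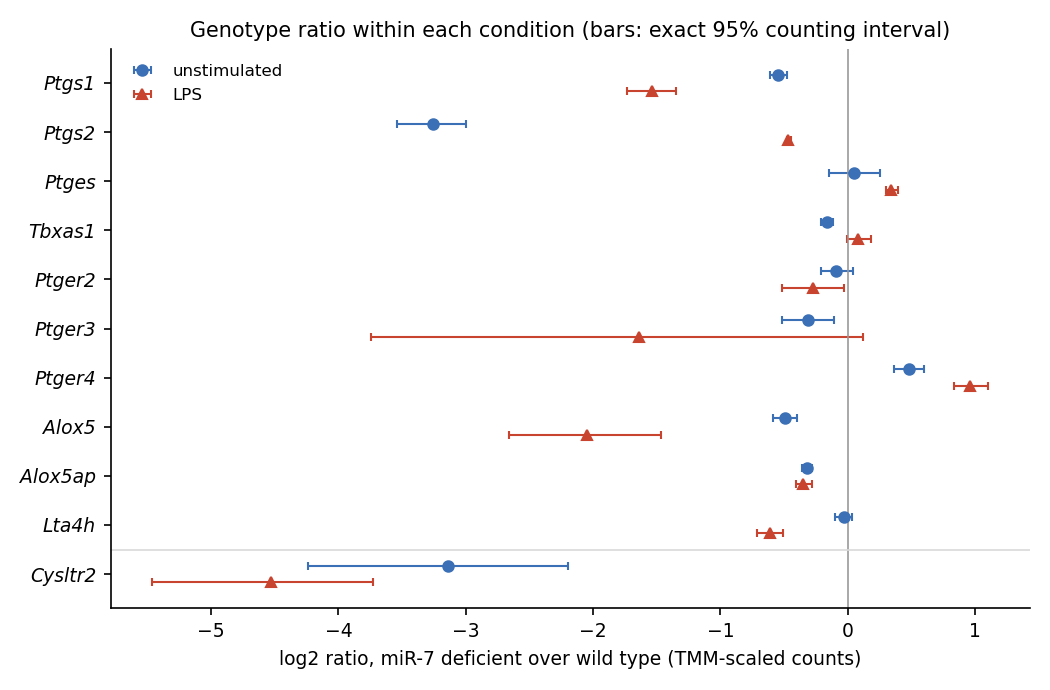
Log2 ratio of miR-7 deficient over wild-type libraries, unstimulated (blue circles) and with LPS (red triangles), with exact 95% counting intervals and no replicates, for the 10 genes and Cysltr2. Ptgs1, Ptgs2, Alox5 and Alox5ap lie left of 0 with their whole intervals in both conditions and Ptger4 right of 0, and Cysltr2 lies further left than any member with LPS. The unstimulated Ptgs2 value is limited by the reappearing share of wild-type LPS counts.

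The difference between the LPS effects of the genotypes has no test, since each group held 1 library. With its whole interval beyond 2-fold, 0 members had a lower LPS ratio in deficient cells (3.82% of tested genes) and 1 had a higher one, Ptgs2 (2.26%), at log2 2.79 (2.53 to 3.05). The Ptgs2 value is limited by the reappearing share of wild-type LPS counts. With that share taken out it turned to -8.69, which rests on the 0.5 counts added to a count of 0. Alox5 was at -1.54 (-2.10 to -0.97) and Ptgs1 at -0.99 (-1.19 to -0.79), so both fell further in the deficient pair. Lta4h was at -0.58 (-0.70 to -0.46). Ptges, at 0.29 (0.09 to 0.50), Tbxas1, at 0.25 (0.14 to 0.35), and Alox5ap, at -0.03 (-0.10 to 0.04), were close to equal in both genotypes. The Ptges difference turned to -0.13 with the reappearing share taken out. For Ptger3 4 counts in the deficient LPS library left an interval of -2.80 to 0.37.

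In the wider list 0 of 49 tested genes were called for genotype, and 4 stood at an unadjusted p under 0.05. Cyp4f18, which inactivates leukotriene B4, stood at 28.7, 19.4, 0.816 and 0 CPM, from 1344, 644, 32 and 0 counts. It was 35.2-fold lower in deficient cells at rest and at least 243-fold lower with LPS against a floor of 3 counts, with an edgeR adjusted p of 0.052, and of 0.0254 where only genes at 10 CPM or more were tested. Cysltr2, a receptor for cysteinyl leukotrienes, stood at 2.24, 8.02, 0.255 and 0.347 CPM, log2 -3.86 ± 0.56, with an adjusted p of 0.0671 by edgeR and 8.33e-05 by DESeq2's Wald test. Both genes lacked most of their message in both deficient libraries. The mast cell marker Cpa3 had a profile near that of Cysltr2, at 1.15, 7.36, 0.153 and 0.641 CPM (genotype log2 -3.26, edgeR adjusted p 0.0893). The mast cell marker Kit did not, at 5.88, 3.89, 7.52 and 2.72 CPM (genotype log2 -0.07, edgeR adjusted p 0.996). The other 6 of the 8 mast cell and basophil markers were at 0 in every library, and the part of such cells in the result was not tested.

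Markers of other cells that moved with LPS are given for the genes above. Of the 2 tested neutrophil markers, Cxcr2 fell with LPS (2.22, 0, 2.35 and 0 CPM, edgeR adjusted p 0.00317) and S100a8 was not called (4.57, 8.69, 4.41 and 8.73 CPM). Among those too low for testing, Ltf was lower with LPS in both genotypes (0.748, 0, 0.790 and 0.107 CPM) and Camp higher (0, 0.362, 0.127 and 1.60 CPM). The dendritic cell markers summed to 28.7, 159, 37.0 and 325 CPM. Unstimulated, this sum was mostly Clec9a, which fell with LPS (23.1, 4.34, 29.8 and 1.31 CPM), and with LPS it was mostly Ccr7, which rose (4.403, 148, 4.08 and 316 CPM). The endothelial markers summed to 42.6, 172, 35.2 and 255 CPM, and the eosinophil markers to 48.5, 8.20, 80.1 and 11.2 CPM, mostly Siglecf. Fibroblast markers summed to 2.14 to 20.0 CPM, B cell markers to at most 0.347 CPM and T and NK cell markers to at most 0.898 CPM. Their part in the results was not tested. The macrophage markers went in both directions. Their sum, 22660, 13480, 23140 and 15200 CPM, was mostly Lyz2, which fell, as did Mrc1 (506, 83.4, 405 and 50.4 CPM). Adgre1 (429, 922, 387 and 902 CPM), Fcgr1 (52.7, 403, 23.8 and 423 CPM) and Cd14 (97.7, 908, 89.8 and 972 CPM) rose, and Csf1r, Cd68, Itgam and Mertk were not called.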

How the data were processed

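The authors deposited raw read counts per gene, 1 file for each of the 4 libraries, with no normalization. Per the design text, reads came from a HiSeq 2000, Casava v1.8.2 and Cutadapt, and were aligned by TopHat v2.0.13 with Bowtie2, with exon annotation from Partek. The submitters' processing notes name HTSeq and the mm8 build. The sources used here do not give the strand setting, the treatment of multiply mapped reads or the annotation release. Without versions, 52403 of 52550 gene IDs (99.7%) matched GENCODE M21, and coordinates are those of the M21 gene with the same ID on GRCm38.

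Testing covered genes that reached 1 CPM in 2 libraries and used edgeR 4.0.16 (limma 3.58.1, R 4.3.3), with TMM scaling and a model of genotype plus LPS. The common biological coefficient of variation came to 0.247, with 5.18 prior degrees of freedom. The scripts were tested on simulated data. Nothing says that libraries came from separate mice or cultures, so p-values measure the spread among these libraries, which may be technical. Differences between LPS ratios were computed after adding 0.5 counts, with a normal 95% interval. Depth sets the precision of each value through its counts, and a count of 0 allows 3 counts, 0.0641 to 0.0905 CPM.

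The members and lists were chosen with earlier results of these data known. Named genes of the wider list were at most 16 called for LPS with the largest fitted changes at 5 CPM or more in a library, and up to 6 by genotype change with both ratios beyond 1.5-fold. Ptges3, Ptgir, Ltb4r1, Dpep2 and Cotl1 were named after their values were seen. Ptges3 was the 1 gene of its group that rose, and Ptgir and Ltb4r1 were the single calls of their groups. Dpep2 and Cotl1 complete the decreases of theirs. Alternatives were DESeq2 1.42.0 size factors and its Wald test, total counts, no filter, a CPM of 10, models of 1 factor, leaving out each library, taking out the shared 1.81%, 5 counts added, transcript lengths and shorter seed matches.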

Additional observations from a re-analysis of the deposited data

Results flagged for a closer look

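Ptger4, the EP4 receptor gene, had LPS ratios of opposite sign in the genotypes, at log2 -0.20 in wild-type and 0.28 in deficient cells, a difference of 0.48 (0.30 to 0.66 by counting error). Akr1b3, an aldose reductase that can make prostaglandin F2 alpha, was at -0.09 and 0.48, a difference of 0.57 (0.46 to 0.67). Cysltr1, a receptor for cysteinyl leukotrienes, was at 0.88 and -0.89, a difference of -1.77 (-1.99 to -1.55), from 13.4, 24.7, 23.6 and 12.7 CPM in wild-type unstimulated, wild-type LPS, deficient unstimulated and deficient LPS cells. Each difference was not tested, as there was 1 library a group. By the same comparison 1065 of 12730 tested genes (8.37%) had ratios of opposite sign.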

How the results depend on the processing

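The LPS calls of Ptgs2, Ptges, Tbxas1 and Ptger2 held in 11 of 11 alternatives, and that of Ptger3 in the 8 that tested it. Over 107 LPS values of the members, 7 lost their call, each with a library left out, and 3 changed sign, all of Ptger4: -0.37 by total counts, -0.11 without the wild-type unstimulated and -0.44 without the deficient LPS library, against 0.52 without the wild-type LPS library. Its deficient LPS ratio was -0.10 by total counts. With the shared wild-type LPS counts taken out, Ptgs2 turned to a genotype change of 1.88 and a difference of -8.69, which rests on the 0.5 counts added to a count of 0, and the Ptges difference turned to -0.13. The Tbxas1 genotype change was 0.00 by total counts. LPS raised 1077 to 1680 genes and lowered 546 to 1541 with a library left out, 2 to 7 of them members that fell, and lowered 3840 by total counts. Genes higher in deficient cells, 49 in the fit reported, were 27 by DESeq2 size factors, 31 by total counts, 18 with no filter, 26 with the shared counts out, 0 with genotype alone and 147 by DESeq2's Wald test. The 21 lower genes became 12 with no filter, 0 with genotype alone and 81 by DESeq2's Wald test. Seed matches over 6 bases stood in 6 members, beside 46.4% of genes. The cause of these shifts was not tested. With 4 and 11 counts, Ptger3 with LPS is limited by depth. No paired analysis was possible because each group held 1 library.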
